A study of Mus musculus with 16 samples.

Results

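Transcripts of the cells that build small blood vessels were followed in mouse striatum for 10 genes, 6 of endothelial cells (Kdr, Flt1, Tek, Cldn5, Pecam1 and Slco1a4) and 4 of pericytes (Abcc9, Pdgfrb, Rgs5 and Vtn). The genes were listed by name, with earlier results of these data known. Each probe set that the array's annotation assigned to exactly 1 of them was taken, whatever its level. This gave 20 of the 34945 probe sets with 1 gene symbol, 9 for endothelial and 11 for pericyte genes, out of 18193 genes in all. Each probe set was compared on its own, because Flt1 and Rgs5 have 4 probe sets each, Abcc9 has 3, and Pdgfrb and Vtn have 2.

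Endothelial cells line the capillaries of the brain and, through tight junctions and transporters, form the blood-brain barrier. Pericytes sit on the outer wall of the capillary within the same basement membrane, and are recruited there by platelet-derived growth factor. Endothelial growth and survival are driven by vascular endothelial growth factor (VEGF) acting on Kdr, while Flt1 binds the same ligand and can hold it away from Kdr. In Huntington's disease the medium spiny neurons of the striatum are the cells known for early loss of transcripts.

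The groups were R6/2 x DREAM+/-, R6/2, DREAM+/- and wild type, each of B6xCBA strain with 4 biological replicates, and thus 16 arrays. R6/2 mice carry a transgene with the first exon of human huntingtin and its expanded CAG repeat, driven by the human huntingtin promoter. DREAM+/- mice are heterozygous for a knockout of Kcnip3, which encodes DREAM, a calcium-regulated repressor of transcription, and the crossed mice carry both the transgene and the knockout allele. The labels and protocols state neither age nor sex. RNA was taken from whole striatum, so a transcript of vessel cells is diluted by neurons and glia, and fewer vessel cells cannot be told apart from less RNA in each.

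The targeted gene, Kcnip3, followed the labels in direction. Its brighter probe set averaged 7.56 in R6/2 x DREAM+/-, 7.77 in DREAM+/-, 9.11 in R6/2 and 9.67 in wild type (log2). Its dimmer probe set averaged 5.40, 5.58, 7.995 and 8.53 in the same order. DREAM+/- differed from wild type by -1.895 on the brighter and -2.9475 on the dimmer probe set. R6/2 x DREAM+/- differed from R6/2 by -1.55 and -2.59. Whether the loss of 1 allele accounts for falls of this size was not tested. Kcnip3 was also lower in R6/2 than in wild type. It differed by -0.555 on the brighter and -0.535 on the dimmer probe set (limma adjusted p = 0.000775 and 0.00688). Although the labels name striatal neurons, transcripts of vessel cells, astrocytes and microglia were all measured. Of the vessel probe sets, 19 of 20 had a mean at or above the 40th percentile of all single-symbol probe sets (6.354, log2), and the dimmest Abcc9 probe set, 1420408_a_at, lay under it. R6/2 x DREAM+/- replicate 3 stood apart at 34.5 on the third principal component, which holds 13.4% of the variance and on which the other arrays lay between -13.4 and 4.48. The actin control probe sets differed between their 3' and 5' ends by 1.1 (log2) on that array and by 1.03 on wild-type replicate 4, against 0.44 to 0.76 on the other 14. R6/2 replicate 1 had Xist at 6.49, against 11.04 to 12.16 elsewhere.

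The stretch of 250 bases before the annotated gene start is shown for the 3 genes that had a probe set past the threshold in any comparison, because DREAM is a repressor that binds DNA and its gene was the one targeted here. The sequences are RefSeq's, build GRCm38.p6, minus strand, at chr5:75978456-75978705 for Kdr, chr5:147726012-147726261 for Flt1 and chr6:142702275-142702524 for Abcc9. Capitals mark GTCA, the core of the downstream regulatory element bound by DREAM, on either strand (TGAC on the reverse).
Kdr: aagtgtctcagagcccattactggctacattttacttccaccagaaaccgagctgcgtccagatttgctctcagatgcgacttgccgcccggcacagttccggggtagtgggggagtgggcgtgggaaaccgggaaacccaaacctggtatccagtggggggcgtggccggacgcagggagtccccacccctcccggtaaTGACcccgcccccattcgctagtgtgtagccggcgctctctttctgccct
Flt1: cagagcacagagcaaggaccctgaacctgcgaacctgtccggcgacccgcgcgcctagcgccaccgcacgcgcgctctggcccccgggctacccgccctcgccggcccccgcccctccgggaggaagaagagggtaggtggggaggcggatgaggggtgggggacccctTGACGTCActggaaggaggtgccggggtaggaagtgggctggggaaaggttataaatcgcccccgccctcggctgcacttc
Abcc9: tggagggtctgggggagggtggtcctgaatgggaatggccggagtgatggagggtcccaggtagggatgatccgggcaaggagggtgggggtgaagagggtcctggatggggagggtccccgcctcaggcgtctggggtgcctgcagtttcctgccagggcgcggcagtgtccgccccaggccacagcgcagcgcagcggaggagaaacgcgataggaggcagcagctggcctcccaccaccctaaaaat
The Kdr window held 1 match, on the reverse strand, and the Abcc9 window held 0. Both matches in Flt1 lay end to end within TGACGTCA, the letters of the cyclic AMP response element, which 1.55% of all promoter windows hold. The Flt1 window also held GTCAAGG, a longer stretch of the element as known from the human prodynorphin gene, overlapping the same letters on the reverse strand. That stretch was present in 1 of 8 member windows and in 2.75% of all 32851. The 8 hold neither Pecam1, which had no promoter entry, nor Pdgfrb, which was left out, whereas the 32851 were not filtered. GTCA alone was present in 7 of the 8 and in 80.2% of all, so these matches describe letters only.

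Setting R6/2 beside wild type asks whether the transgene changed vessel transcripts in the tissue where it lowers neuronal ones. None of the 20 probe sets passed at a limma adjusted p under 0.05, whereas 13.2% of all single-symbol probe sets did. Of the 20, 1 had an unadjusted p under 0.05, beside 26.5% of all probe sets. The median log2 difference of the 20 was 0.01, beside 0.025 over all probe sets, and the 20 differences lay between -0.12 and 0.25. The 95% interval stayed inside 0.5 of zero on the log2 scale for 18 of the 20, and 2 Rgs5 probe sets, 1420941_at and 1420940_x_at, had wider intervals. In 0 of the 20 did the 4 R6/2 arrays lie apart from the 4 wild-type arrays, beside 17% of all probe sets.

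Cldn5, the claudin that seals endothelial tight junctions, was not separated by the transgene. It read 9.25, 9.35, 9.50 and 9.31 in R6/2, against 9.37, 9.40, 9.32 and 9.34 in wild type (log2). The R6/2 arrays lay on both sides of the wild-type ones. The log2 difference was -0.005 (95% interval -0.13 to 0.12, limma adjusted p = 0.970). Pdgfrb, the receptor by which pericytes are recruited, read 8.62, 8.48, 8.64 and 8.55 in R6/2 and 8.73, 8.69, 8.78 and 8.59 in wild type on its brighter probe set. The groups overlapped, and the difference was -0.12 (-0.30 to 0.05, limma adjusted p = 0.355).

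The highest difference in R6/2 was that of Flt1 probe set 1451756_at, at 0.25 (95% interval 0.04 to 0.46, limma adjusted p = 0.115). Without wild-type replicate 3 it was 0.33 and passed (adjusted p = 0.0401), and over the 24 alternatives the adjusted p ran up to 0.300. Tek, the angiopoietin receptor of endothelial cells, averaged 7.53 ± 0.13 in R6/2 and 7.60 ± 0.13 in wild type (SD, n = 4 each), a difference of -0.06 that did not pass. Pecam1, an adhesion molecule at endothelial cell borders, differed by -0.03 and did not pass.

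In R6/2 x DREAM+/- against DREAM+/-, 0 of 20 probe sets passed, beside 6.93% of all, and 2 had an unadjusted p under 0.05, beside 19.4% of all. The median was 0.01, beside 0.0125 over all probe sets. Flt1 1451756_at differed by 0.27 (0.06 to 0.48, limma adjusted p = 0.132) and Kdr by 0.15 (0.03 to 0.27, limma adjusted p = 0.142). Each passed on leaving out 1 array, Flt1 without wild-type replicate 4 (adjusted p = 0.0437) and Kdr without R6/2 x DREAM+/- replicate 2 (adjusted p = 0.0367), while over the alternatives the adjusted p reached 0.294 and 0.322. These 2 transgene comparisons share no arrays. Of the 20 probe sets 8 were above zero in both and 4 below zero in both, or 40% and 20%, beside 39.9% and 27.6% of all probe sets.

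The interaction of the transgene with DREAM dose was called for 0 of the 20 probe sets, and 0 of the 20 had an unadjusted p under 0.05. Over all single-symbol probe sets it was called for 0% as well, with 2121 at an unadjusted p under 0.05. For 18 of the 20 the interval of the interaction lay inside 0.5 of zero, and the exceptions were Rgs5 1420941_at and 1420940_x_at. Kdr had an interaction of 0.05 (-0.13 to 0.22), Flt1 1451756_at one of 0.02 (-0.28 to 0.32) and Abcc9 1435752_s_at one of 0.10 (-0.09 to 0.29).

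**Figure D1:**
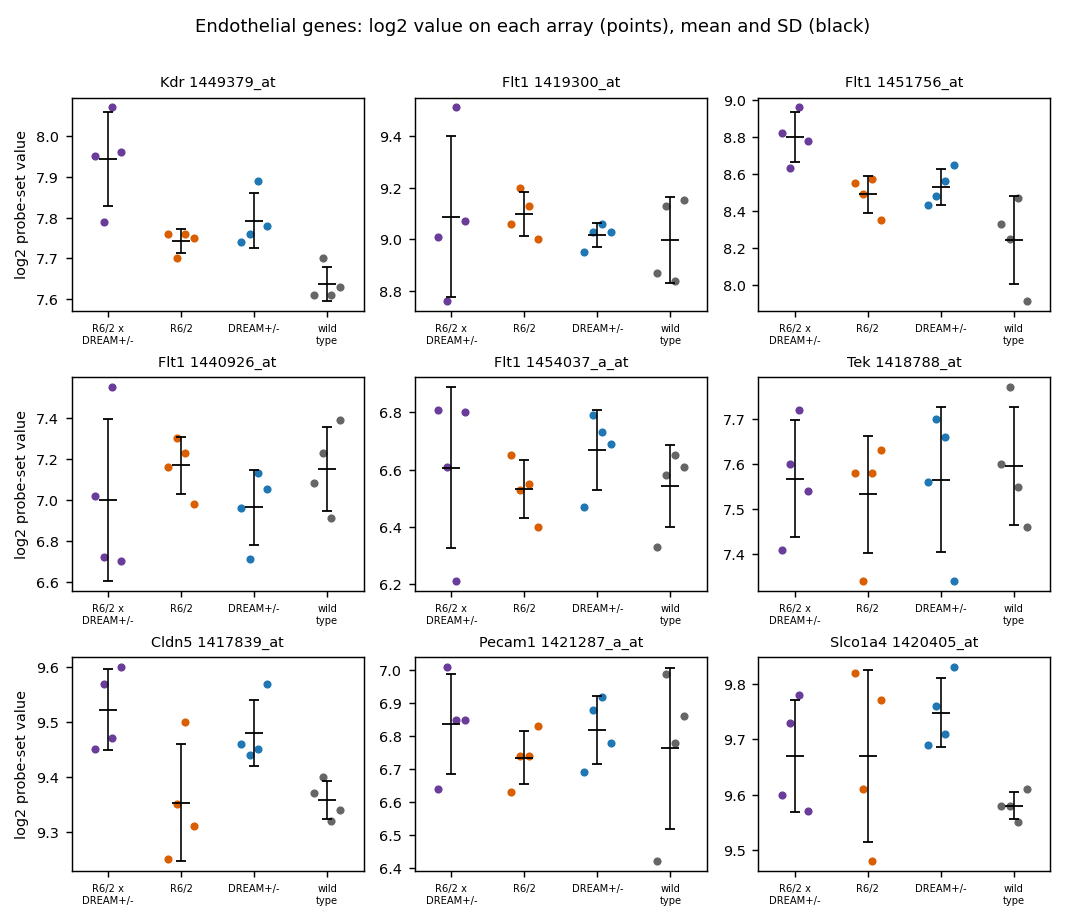
Log2 values of the 9 endothelial probe sets on each of 4 arrays per genotype (coloured points), with the group mean and SD in black; each panel has its own log2 axis, which does not start at 0. Kdr and Flt1 1451756_at are highest in R6/2 x DREAM+/- and lowest in wild type, while Tek and Pecam1 overlap in all 4 groups.

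The DREAM+/- genotype was set against wild type to ask whether DREAM dose alone moves these transcripts. None of the 20 probe sets passed, beside 2.26% of all, although 6 had an unadjusted p under 0.05, all 6 with higher values in DREAM+/-, where 14% of all probe sets had such a p in either direction. In 3 probe sets the groups did not overlap, all higher in DREAM+/-, and they were those of Kdr, Cldn5 and Slco1a4. Over all probe sets 9.21% had no overlap, 3.87% with higher values in DREAM+/-. The median over the 20 was 0.12, beside -0.015 over all probe sets. Slco1a4, an organic anion transporter of brain endothelium, read 9.69, 9.76, 9.71 and 9.83 in DREAM+/- and 9.58, 9.58, 9.55 and 9.61 in wild type. Every DREAM+/- array lay above every wild-type array, yet the difference of 0.17 (0.02 to 0.32) did not pass (limma adjusted p = 0.278). Slco1a4 has close relatives in its gene family, and a share of its signal from them was not tested.

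Cldn5 read 9.46, 9.44, 9.45 and 9.57 in DREAM+/-, above the wild-type range of 9.32 to 9.40, and the difference was 0.12 (limma adjusted p = 0.358). Kdr read 7.74, 7.76, 7.89 and 7.78 in DREAM+/- and 7.61, 7.70, 7.61 and 7.63 in wild type, a difference of 0.16 (0.03 to 0.28, limma adjusted p = 0.204). Flt1 1451756_at differed by 0.29 (0.08 to 0.50, limma adjusted p = 0.166), with wild-type replicate 3 inside the DREAM+/- range, and passed without that array (0.37, adjusted p = 0.0457; 0.404 at most over the alternatives).

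Among pericyte genes the smallest p in DREAM+/- against wild type was that of Abcc9 1435752_s_at, which read 7.68, 7.74, 7.76 and 7.81 in DREAM+/- and 7.40, 7.45, 7.68 and 7.55 in wild type. The groups touched at 7.68. The difference of 0.23 (0.09 to 0.36) did not pass (limma adjusted p = 0.0725), but did under quantile normalization, with array weights and without wild-type replicate 3, with adjusted p from 0.0135 to 0.205 over the 24 alternatives.

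In R6/2 x DREAM+/- against R6/2, the DREAM+/- genotype on the transgenic background, 2 of 20 probe sets rose and 0 fell, beside 3.53% and 4.22% of all probe sets. They belong to Kdr and Abcc9. The median over the 20 was 0.10, beside -0.0275 over all probe sets. The comparison shares no arrays with that of DREAM+/- and wild type. Of the 20 probe sets 11 were above zero in both comparisons and 3 below zero in both, or 55% and 15%, beside 25% and 40.3% of all single-symbol probe sets. The 11 include every Rgs5 probe set and Abcc9 1435752_s_at and 1435751_at. Some genes are thus counted more than once, and the 11 are not separate genes.

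Kdr, the main signalling receptor for VEGF, read 7.95, 7.79, 8.07 and 7.96 in R6/2 x DREAM+/- and 7.76, 7.70, 7.76 and 7.75 in R6/2. Every crossed array lay above every R6/2 array. The log2 difference was 0.20 (95% interval 0.08 to 0.32, limma adjusted p = 0.0420), a level 1.15 times as high. The call was lost under 13 of the 24 alternatives, among them leaving out any 1 of the 4 R6/2 arrays, or R6/2 x DREAM+/- replicates 1, 3 or 4, or DREAM+/- replicates 1, 2 or 4, with adjusted p from 0.0152 to 0.115 and values from 0.16 to 0.25 over all 24.

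Abcc9 encodes the sulphonylurea receptor subunit of the potassium channel of pericytes. Its probe set 1435752_s_at read 7.85, 7.79, 7.94 and 7.82 in R6/2 x DREAM+/- and 7.60, 7.58, 7.47 and 7.45 in R6/2. The groups did not overlap, with a difference of 0.33 (0.19 to 0.46, limma adjusted p = 0.00564). The call held in all 24 alternatives, with adjusted p between 0.00188 and 0.0227. The suffix of this probe set marks one whose probes can match several transcripts. Neither of the other Abcc9 probe sets passed: 1435751_at differed by 0.12 (limma adjusted p = 0.339) and 1420408_a_at, the dim one, by -0.16 (limma adjusted p = 0.380).

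Flt1 1451756_at read 8.82, 8.63, 8.96 and 8.78 in R6/2 x DREAM+/- against 8.55, 8.49, 8.57 and 8.35 in R6/2. The groups did not overlap, and the difference of 0.31 (0.10 to 0.52) did not pass (limma adjusted p = 0.0688, range 0.0210 to 0.188 over the alternatives). Cldn5 read 9.45, 9.57, 9.47 and 9.60 in R6/2 x DREAM+/- against 9.25, 9.35, 9.50 and 9.31 in R6/2, with 1 R6/2 array inside the crossed range. Its difference of 0.17 (0.05 to 0.29) did not pass (limma adjusted p = 0.0840), and passed without R6/2 replicate 3 (adjusted p = 0.0328; 0.212 at most over the alternatives).

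**Figure D2:**
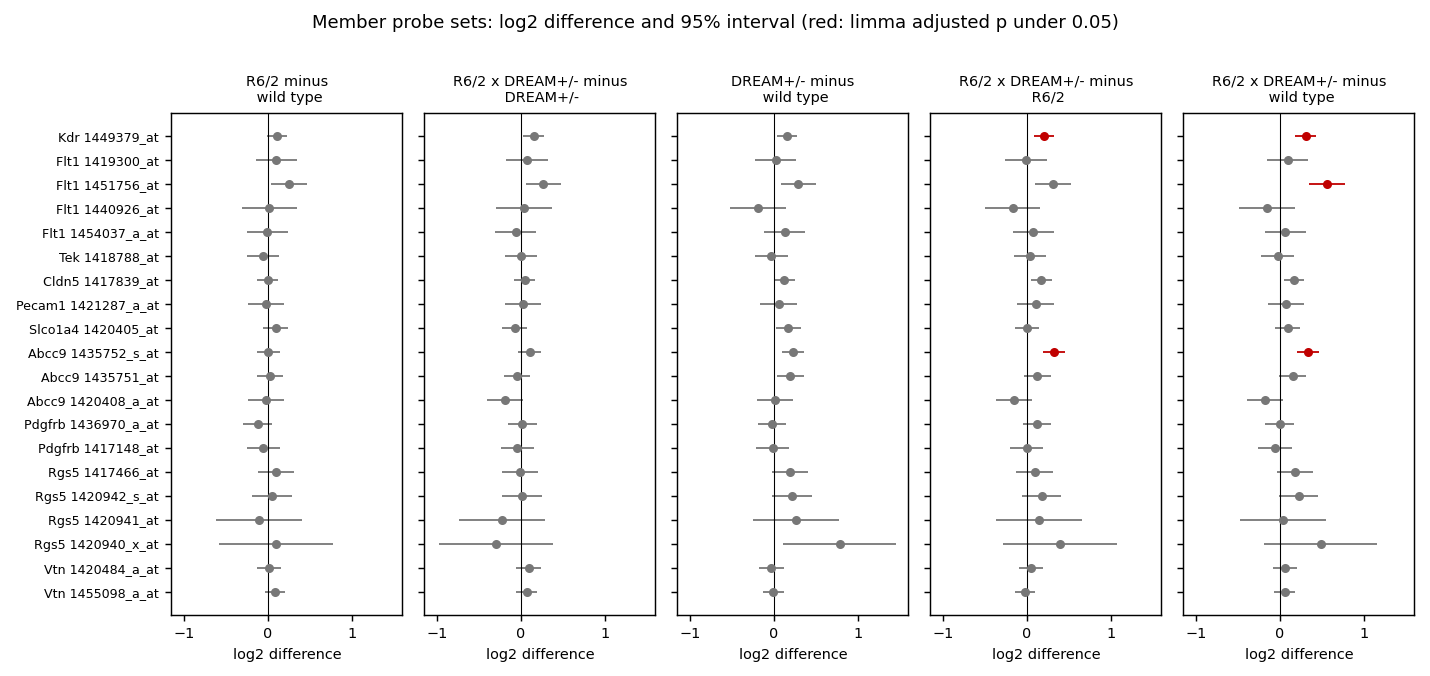
Log2 difference (points) and 95% interval (lines) of each of the 20 probe sets in 5 comparisons, with the first-named genotype minus the second, in red where the limma adjusted p was under 0.05. No point is red for the transgene on either background or for DREAM+/- against wild type; 2 are red in R6/2 x DREAM+/- against R6/2 and 3 against wild type.

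Against wild type, which differs from the crossed mice at both loci, R6/2 x DREAM+/- had 3 of 20 probe sets higher and 0 lower, beside 7.11% and 8.5% of all probe sets. Each of these calls held in all 24 alternatives. Kdr averaged 7.94 ± 0.12 in R6/2 x DREAM+/- and 7.64 ± 0.04 in wild type (SD, n = 4 each), a difference of 0.31 (0.18 to 0.43, limma adjusted p = 0.00149). Flt1 1451756_at averaged 8.80 ± 0.14 in R6/2 x DREAM+/- and 8.24 ± 0.24 in wild type. Its difference of 0.56 (0.35 to 0.77, limma adjusted p = 0.00105) is a level 1.47 times as high (values of 0.45 to 0.63 and adjusted p up to 0.0191 over the alternatives), and the lowest crossed array, 8.63, lay above the highest wild-type array, 8.47. Abcc9 1435752_s_at differed by 0.33 (0.20 to 0.46, limma adjusted p = 0.00170). Cldn5 did not overlap wild type either, at 0.17 (0.04 to 0.29, limma adjusted p = 0.0657), and passed under 4 alternatives (adjusted p from 0.0378 to 0.171 over all 24), among them the fit without R6/2 replicate 3.

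Across the 4 genotypes the order of mean Kdr was R6/2 x DREAM+/- at 7.94, DREAM+/- at 7.79, R6/2 at 7.74 and wild type at 7.64. Flt1 1451756_at had the same order, at 8.80, 8.53, 8.49 and 8.24. Of these groups DREAM+/- and R6/2 are neighbours whose arrays overlap in both genes. The comparisons of the crossed mice with R6/2 and with wild type share the crossed arrays, so they are not independent of each other.

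The 3 other Flt1 probe sets did not follow 1451756_at. In R6/2 x DREAM+/- against wild type they differed by 0.09 for 1419300_at, -0.16 for 1440926_at and 0.06 for 1454037_a_at, and none passed (limma adjusted p = 0.689, 0.584 and 0.781). Flt1 is known to give both a membrane receptor and a shorter secreted form, and no source here states which form each probe set reads. Over the 16 arrays, deviations from the genotype mean of 1451756_at correlated at r = 0.143, 0.133 and -0.105 with those of the other Flt1 probe sets, whereas 1419300_at and 1440926_at gave r = 0.836. A rise of Flt1 thus rests on 1 of its 4 probe sets.

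Rgs5, a regulator of G-protein signalling that marks pericytes, had 2 steady and 2 unsteady probe sets. The brightest, 1417466_at, averaged 11.31 ± 0.21 in R6/2 x DREAM+/-, 11.22 ± 0.09 in R6/2, 11.33 ± 0.06 in DREAM+/- and 11.13 ± 0.21 in wild type (SD, n = 4 each). The groups overlapped, and no difference passed. Probe set 1420940_x_at, whose suffix marks probes that can match other genes, read 8.66, 9.03, 7.43 and 9.06 in R6/2 x DREAM+/-, 8.38, 7.89, 8.48 and 7.87 in R6/2, 8.67, 8.98, 8.91 and 8.81 in DREAM+/- and 7.31, 7.97, 8.88 and 8.09 in wild type. Replicate 3 was the lowest crossed array and the highest wild-type one. The difference of DREAM+/- from wild type was 0.78 (0.10 to 1.46, limma adjusted p = 0.268), and it passed with array weights (0.90, adjusted p = 0.0411; 0.493 at most over the alternatives).

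R6/2 x DREAM+/- replicate 3, the array with the widest gap between the actin control probe sets, decided calls on 2 Rgs5 probe sets in comparisons that use it. With it, 1420940_x_at differed by 0.48 from wild type (limma adjusted p = 0.368). Without it the difference was 0.85 and passed (adjusted p = 0.0250). For 1420941_at in R6/2 x DREAM+/- against R6/2, the difference was 0.14 with that array (limma adjusted p = 0.784) and 0.48 without it (adjusted p = 0.0415; 0.974 at most over the alternatives). The same array was the highest crossed one for Kdr (8.07), Flt1 1451756_at (8.96) and Abcc9 1435752_s_at (7.94). Without it the Kdr difference from R6/2 was 0.16 and did not pass (limma adjusted p = 0.0822), as on leaving out several other arrays. The calls of these probe sets against wild type held without it. The part of RNA quality in the values of this paragraph was not tested. On the other 2 Rgs5 probe sets no call changed under any alternative.

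Pdgfrb and Vtn did not pass in any comparison or alternative. The dimmer Pdgfrb probe set, 1417148_at, averaged 7.44 ± 0.19 in R6/2 x DREAM+/-, 7.45 ± 0.12 in R6/2, 7.49 ± 0.06 in DREAM+/- and 7.50 ± 0.17 in wild type (SD, n = 4 each). Vtn encodes vitronectin, an adhesive protein that brain pericytes secrete. Its brighter probe set, 1420484_a_at, averaged 10.35 ± 0.10 in R6/2 x DREAM+/-, 10.30 ± 0.14 in R6/2, 10.26 ± 0.04 in DREAM+/- and 10.29 ± 0.07 in wild type. All 4 groups overlapped for both genes. The widest interval of Vtn among the 5 pairwise comparisons stayed within 0.5 of zero on either probe set.

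**Figure D3:**
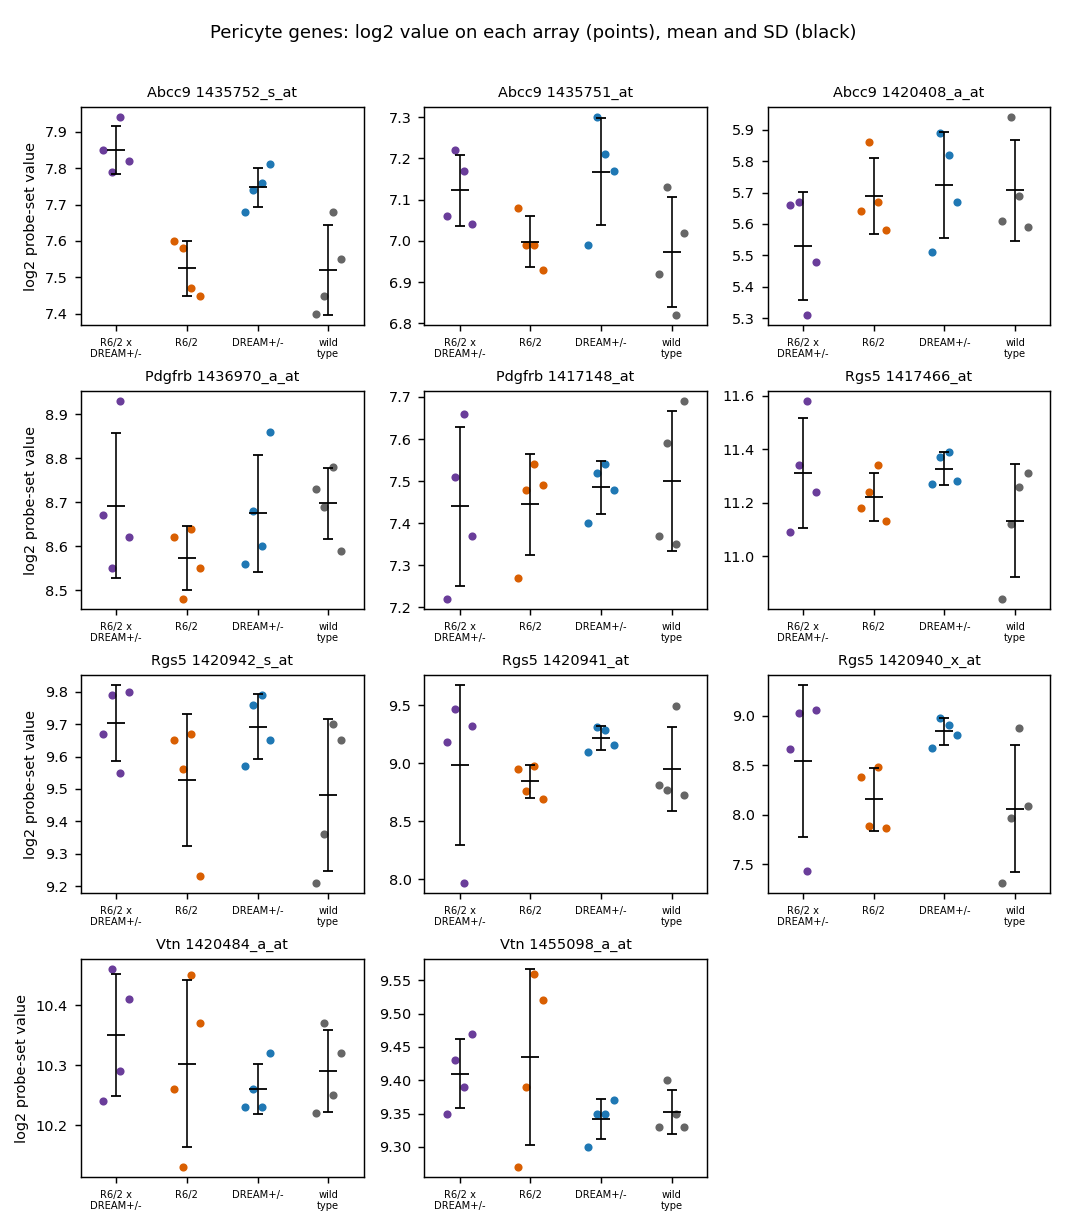
Log2 values of the 11 pericyte probe sets on each of 4 arrays per genotype (coloured points), with the group mean and SD in black; each panel has its own log2 axis, which does not start at 0. Abcc9 1435752_s_at reads 7.79 to 7.94 in R6/2 x DREAM+/- and 7.68 to 7.81 in DREAM+/-, against 7.45 to 7.60 in R6/2 and 7.40 to 7.68 in wild type, and R6/2 x DREAM+/- replicate 3 lies low on Rgs5 1420941_at (7.97) and 1420940_x_at (7.43).

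Within genotypes, the vessel genes did not move as 1 block from array to array. For the brightest probe set of each gene, deviations from the genotype mean were correlated over the 16 arrays, which share their processing. Among the 15 endothelial pairs 11 were positive, with a median r of 0.109 and a range of -0.498 (Cldn5 with Slco1a4) to 0.762 (Kdr with Flt1). The Flt1 probe set used here was 1419300_at, which passed in no comparison, and not 1451756_at. Among the 6 pericyte pairs the median was 0.209, and among the 24 pairs across both cell types it was 0.225. The 3 genes most like each member by this measure, out of 11968 others above the brightness percentile, included no other member. For Kdr they were Tfcp2, Stk40 and Slc7a10 (r = 0.944, 0.934 and 0.910), and for Cldn5 they were Nxpe3, Usp32 and Rnf213 (r = 0.873, 0.862 and 0.837). For Abcc9 1435752_s_at they were Fbxo41, Cacna1b and Hspa4 (r between 0.805 and 0.894). Among the 30 genes, Nid1, a basement membrane gene close to Pdgfrb (r = 0.836), was the 1 on a vessel list.

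Other genes of brain endothelium, outside the 10 members, were likewise without a call in R6/2. Of 23 measured, 0 passed in R6/2 against wild type and 0 in R6/2 x DREAM+/- against DREAM+/-, beside 15.7% and 8.34% of all genes taken by their brightest probe set. The medians were -0.04 and -0.05, beside 0.03 and 0.015 over all genes. In DREAM+/- against wild type 2 fell and 0 rose, beside 2.1% of all genes called. Both are flow-responsive transcription factors, Klf2 (-0.40, limma adjusted p = 0.0167) and Klf4 (-0.41, limma adjusted p = 0.0374). In R6/2 x DREAM+/- against R6/2, where 7.64% of genes were called, 2 rose and 1 fell. Vwf, the von Willebrand factor, rose by 0.70 (limma adjusted p = 0.00477) with a mean under the brightness percentile, Adgrl4 rose by 0.34 and Slc38a5, an amino acid transporter, fell by 0.34 on the log2 scale. Against wild type the R6/2 x DREAM+/- arrays, with 16.9% of genes called, had 1 of the 23 genes higher (Vwf) and 4 lower. The lower genes were Slc38a5 (-0.37), Klf4 (-0.36), Klf2 (-0.31) and Eng, a co-receptor of the TGF-beta family (-0.21). The member probe sets called in that comparison were 3 higher and 0 lower. These counts, of genes and of probe sets, are too small to set the members apart from this list.

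Among 19 genes of barrier junctions and transporters, 3 fell in R6/2 against wild type and 0 rose, a share close to the 15.7% of all genes called. They were Abcc4, a drug efflux pump (-0.32), Tfrc, the transferrin receptor (-0.32), and Lrp8 (-0.29), which neurons or glia can also express. The same 3 rose in R6/2 x DREAM+/- against R6/2, where 7.64% of all genes were called, Tfrc by 0.36 (limma adjusted p = 0.00355), Lrp8 by 0.38 and Abcc4 by 0.27. These comparisons share the R6/2 arrays. Tfrc was also higher in DREAM+/- against wild type (0.265, limma adjusted p = 0.0420), where 2.1% of all genes were called. There Lrp8 (0.05) and Abcc4 (0.07) did not pass. The interaction was called for 0 of the 19 genes. Abcg2, the breast cancer resistance protein, is an efflux pump of the barrier. It was the 1 further gene to rise in R6/2 x DREAM+/- against R6/2 (0.20, limma adjusted p = 0.0475). In R6/2 x DREAM+/- against wild type it was higher by 0.33 (limma adjusted p = 0.000939). Against wild type, where 16.9% of all genes were called, the list was evenly split. Abcg2 and Slc7a1 (0.185) were higher, and Slc16a1 (-0.23) and Mfsd2a (-0.31) were lower.

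Of 24 ligands and other receptors of vessel signalling, 5 fell and 1 rose in R6/2 against wild type, beside 15.7% of all genes called. Jag1, a Notch ligand, fell by 0.54 (limma adjusted p = 0.00123) and Nrp1, a co-receptor for VEGF, by 0.41 on the log2 scale, while Angpt1, the ligand of Tek, rose by 0.63 with a mean under the brightness percentile. Vegfb, a ligand of Flt1, was lower with the DREAM+/- genotype on either background, at -0.56 in R6/2 x DREAM+/- against R6/2 (limma adjusted p = 0.00253) and -0.42 in DREAM+/- against wild type (limma adjusted p = 0.0279). Acvrl1, an endothelial receptor of the TGF-beta family, rose by 0.70 in DREAM+/- against wild type (limma adjusted p = 0.00370). It fell by 0.80 in R6/2 x DREAM+/- against DREAM+/- (limma adjusted p = 0.000515). Jag1 was called in the same direction in each, and these comparisons share the DREAM+/- arrays. On the list 2 genes rose and 1 fell in DREAM+/- against wild type, beside 2.1% of all genes called. In R6/2 x DREAM+/- against DREAM+/-, 0 rose and 3 fell, beside 8.34% of all genes called. In R6/2 x DREAM+/- against R6/2, 5 genes of the list rose and 1 fell, beside 7.64% of all genes called, and the list's median was 0.01, beside -0.06 in R6/2 against wild type.

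Mural cell genes, those of pericytes and vascular smooth muscle, were called in 2 of 20 in R6/2 against wild type, both lower, beside 15.7% of all genes. Tagln, a smooth muscle protein, fell by 0.38 (limma adjusted p = 0.00171) and Art3 by 0.34 on the log2 scale. Only Tagln (-0.53) of the 20 was called in R6/2 x DREAM+/- against DREAM+/-, beside 8.34% of all genes. In R6/2 x DREAM+/- against R6/2, with 7.64% of all genes called, Art3 rose by 0.455 and Ifitm1 fell by 0.44 on the log2 scale. Against wild type, with 16.9% of all genes called, the crossed mice had Tagln (-0.40) and Mcam (-0.36) lower. Basement membrane genes passed in 0 of 15 in R6/2 against wild type, beside 15.7% of all genes. In R6/2 x DREAM+/- against R6/2 they passed in 1 of 15, beside 7.64% of all genes. Lamb1, a laminin chain, rose there by 0.30 (limma adjusted p = 0.0149). Of 14 genes of the Wnt pathway that maintains the barrier, 1 fell in R6/2 against wild type, beside 15.7% of all genes. It was Wnt7a, a ligand made by neural cells, at -0.28 (limma adjusted p = 0.0130). On that list 0 passed in R6/2 x DREAM+/- against R6/2. Against wild type the crossed mice had 1 of the 14 higher and 3 lower, beside 16.9% of all genes.

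**Figure D4:**
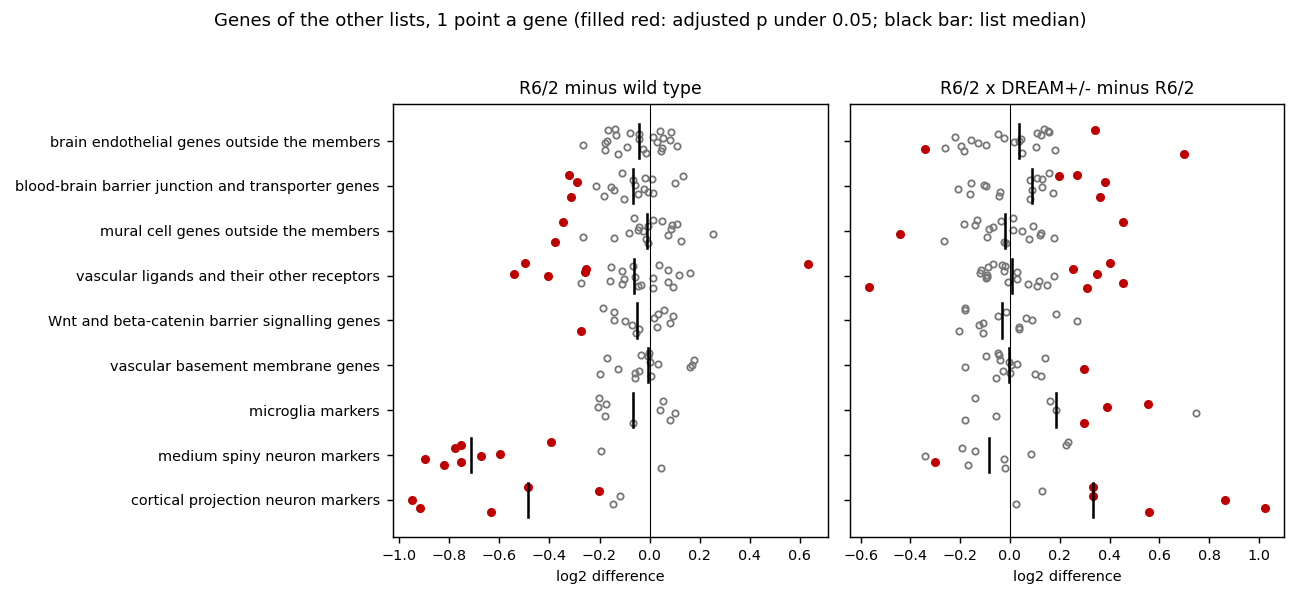
Log2 difference of each measured gene (1 point a gene, by its brightest probe set) on 6 vessel lists and 3 lists of other cells, in R6/2 minus wild type (left) and R6/2 x DREAM+/- minus R6/2 (right); red points passed and black bars are list medians. The medium spiny neuron list lies near -0.71 on the left, while the medians of the 6 vessel lists there lie between -0.07 and -0.005.

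Markers of other cells in the tissue moved with these comparisons, and their part in the vessel values was not tested. Medium spiny neuron markers fell in 8 of 10 genes in R6/2 against wild type (median -0.71), beside 15.7% of all genes called. The mean microglia level was 9.25 to 9.28 in R6/2 x DREAM+/- and 9.28 to 9.32 in DREAM+/-, against 8.99 to 9.12 in R6/2 and 8.96 to 9.22 in wild type (log2, 9 genes), so both DREAM+/- groups lay above the others, as did Abcc9 1435752_s_at apart from 1 shared value. Microglia markers rose in 3 of 9 genes and fell in 0 in R6/2 x DREAM+/- against R6/2, beside 7.64% of all genes called. In R6/2 x DREAM+/- against wild type 5 rose and 1 fell, beside 16.9% of all genes called. In DREAM+/- against wild type C1qb alone was called, and was higher, beside 2.1% of all genes. The choroid plexus, a vascular tissue beside the striatum, varied between arrays: its markers averaged 8.32 to 9.53 in R6/2 x DREAM+/-, 6.95 to 8.73 in R6/2, 7.67 to 9.51 in DREAM+/- and 8.11 to 8.69 in wild type (9 genes), all overlapping. Of these genes Kcne2 alone passed, at 2.68 in R6/2 x DREAM+/- against R6/2 (limma adjusted p = 0.00257). It was also called higher in DREAM+/- and in R6/2 x DREAM+/- against wild type. Cortical projection neuron markers averaged 8.22 to 8.55 in R6/2 x DREAM+/- against 7.63 to 8.06 in R6/2 and 8.30 to 8.51 in wild type. Fibroblast marker levels overlapped in all 4 groups. Of these 10 genes Col1a1 alone was called, lower in R6/2 x DREAM+/- against R6/2 and against wild type, beside 7.64% and 16.9% of all genes. Of 8 measured blood cell markers 3 were at or above the brightness percentile. Of the blood cell markers S100a8, with a mean under that percentile, was called higher in R6/2 x DREAM+/- against R6/2 (0.30), DREAM+/- (0.23) and wild type (0.23), and the list's median against R6/2 was 0.12. Astrocyte markers fell in 2 of 10 genes and rose in 1 in R6/2 against wild type (median -0.19), beside 15.7% of all genes called. In R6/2 x DREAM+/- against R6/2 they rose in 1 of 10, Gfap (0.525), beside 7.64% of all genes called (list median -0.05).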

How the data were processed

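Total RNA of whole striatum was hybridised to 1-colour Affymetrix expression arrays. What the authors deposited is a table of 16 columns, with a log2 level for each of 45101 probe sets, and the submitters' processing notes name RMA and affy. RMA brings arrays to a common distribution, so a shift shared by most genes would not be seen, and levels of different probe sets are not compared. Sample titles gave the groups and replicate numbers. Gene names came from the platform annotation: 34945 had 1 gene symbol and were tested, 932 had several, 9160 had none there and 64 were controls.

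Each comparison was fitted by limma 3.58.1 (R 4.3.3) with 1 mean per genotype, all 16 arrays and Benjamini-Hochberg adjustment over all 34945 probe sets, and passed at an adjusted p under 0.05. The number of arrays limits the precision. The fit was tested on simulated data. For lists, the brightest probe set stood for a gene, and 178 of 192 listed names were measured. Named genes were all members, Kcnip3, up to 3 called genes of smallest p per list and comparison, and the 3 most alike to each member; others named, such as Abcg2 beside R6/2, were chosen after their values were seen. The members and lists were chosen with earlier results of these data known. The series' design text calls the samples biological replicates and does not say whether each is 1 animal. Of 24 same-numbered array pairs, 8 had correlated deviations over 0.1 (range -0.471 to 0.33), so numbers were not taken to pair arrays. The alternatives were 8 other settings and each of 16 arrays left out in turn.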

Additional observations from a re-analysis of the deposited data

Results flagged for a closer look

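In 3 of 80 groups of 4 arrays, 1 array lay far from the others for the group's range; chance gives about 1 in 20 groups. Kdr read 7.7 in R6/2 replicate 2, under the 7.75 to 7.76 of the other R6/2 arrays. Cldn5 read 9.57 in DREAM+/- replicate 4, above the 9.44 to 9.46 of the other DREAM+/- arrays. Rgs5 1420941_at read 9.49 in wild-type replicate 3, above the 8.73 to 8.81 of the other wild-type arrays.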

How the results depend on the processing

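Of 2854 values recomputed for member probe sets, 2822 stayed on their side of the threshold, 13 lost a call, 19 gained one and 0 called values changed direction. All 13 losses were of Kdr in R6/2 x DREAM+/- against R6/2. With a replicate block the member counts were as reported, at 2 in R6/2 x DREAM+/- against R6/2, 3 against wild type and 0 elsewhere, and it changed no member call. In DREAM+/- against wild type 1 member passed under quantile normalization and 2 with array weights. In R6/2 x DREAM+/- against R6/2, 1 passed with trended and robust variance, without both arrays that stand apart (R6/2 replicate 1 and R6/2 x DREAM+/- replicate 3), or with only the groups compared. Against wild type 5 passed without both arrays. Leaving out 1 array gave 0 to 1 members in each R6/2 comparison (R6/2 against wild type, and R6/2 x DREAM+/- against DREAM+/-), 0 to 2 in DREAM+/- against wild type, 1 to 3 in R6/2 x DREAM+/- against R6/2 and 3 to 4 against wild type.

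Over all probe sets, array weights called 3741 in R6/2 x DREAM+/- against DREAM+/- (2420 as reported) and 1550 in DREAM+/- against wild type (790). Using only the groups compared called 1749 in R6/2 x DREAM+/- against R6/2 (2711) and 2785 against wild type (5454). Leaving out 1 array gave 1372 to 2875 in R6/2 x DREAM+/- against DREAM+/-, 423 to 1403 in DREAM+/- against wild type and 1410 to 3971 in R6/2 x DREAM+/- against R6/2. The interaction was called for 1 probe set with arrays shifted to a common median and for 0 to 1 on leaving out 1 array (0 as reported). The cause of these moves was not tested, apart from the fewer arrays. The 4 arrays a group limit the precision to the intervals given.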
